A study of Mus musculus with 24 samples.

Results

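GATA4-bound distal intronic regions of mouse liver chromatin were read through acetylation of lysine 27 of histone H3 (H3K27ac). They were chosen from the authors' table of 63686 H3K27ac regions by 4 conditions: a GATA4 peak interval listed beside the region, an annotation that begins with intron, an absolute distance to the nearest transcription start site (TSS) above 1000 bp, and a width under 10000 bp. Of 5292 regions with a GATA4 interval, 2566 were intronic, 2284 of those were farther than 1000 bp from a TSS, and 1811 also met the width limit. These 1811 regions are the members, and none of the H3K27ac values was used to choose them.

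The livers came from male C57BL/6J mice aged 9 weeks that all carried Gata4 fl/fl alleles. At 8 weeks each mouse received AAV8, a virus that infects liver cells. In the knockout (KO) mice it carried Cre recombinase under the Tbg promoter, which is active in hepatocytes. In the control mice it was empty, so the control virus carried no Cre. All mice were killed 7 days later, between 9 and 10 am. KO fasted and control fasted mice had gone without food for 12 h from the evening. KO refed and control refed mice had been fasted for 12 h from the morning and then fed a high-sucrose diet (69% sucrose, 10% fat) for 12 h. Each of the 4 groups had 3 H3K27ac libraries from separate mice, with 22.2 to 30.4 M reads (M, 1e6 reads) in the regions per library. The deposited values are reads scaled to the same total in every library, and below they are called normalized reads. The libraries that gave the GATA4 intervals were not analysed here, so whether the intervals differ between feeding states is not known from these data.

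GATA4 is a zinc finger transcription factor named for the short DNA core it binds. It works with FOG cofactors, of which Zfpm1 encodes FOG1. In liver it is known in hepatocytes and in sinusoidal endothelial cells, whose identity depends on it. H3K27ac marks active enhancers and promoters, and introns hold many enhancers, which need not act on the gene that contains them.

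The Tbg promoter is meant to limit Cre to hepatocytes, and recombination in hepatocytes or other cells was not measured in these libraries. The region nearest the Gata4 start, a bound domain of chr14:63845908-63872243 (mm9), is too wide to be a member. It held 4157, 4177 and 3879 normalized reads in KO fasted, against 3464, 3535 and 3784 in control fasted livers. It held 5124, 5589 and 5756 in KO refed, against 5161, 5036 and 4745 in control refed livers. The adjusted p of the average knockout change there was 0.0612 (limma), and acetylation at the gene does not show whether the floxed sequence was lost. Among markers of 6 liver cell types, each read at the region nearest its TSS, hepatocyte genes had the highest median value per kb, 227 normalized reads, against 45.1 to 88.8 for the other 5 lists. No marker region of any list was called for the knockout in either feeding state or their average (limma adjusted p under 0.05).

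The members were wide and strongly acetylated for introns. Their median width was 2980 bp, against 1265 bp for the 25936 distal intronic regions with no GATA4 interval, chosen with the same limits on distance and width. Their median level was 219 normalized reads, against 60.6 in the unbound introns. Per kb of region, the medians were 70.4 and 49.8 normalized reads. Of the members, 70.1% lay at or above the median level of all regions, 90.6 normalized reads. These traits were not particular to introns. The 1792 GATA4-bound distal intergenic regions, under the same limits, had medians of 2368 bp, 168 normalized reads and 67.8 normalized reads per kb. A wider region has more room for a GATA4 interval, and the part of width in these differences was not tested. Position differed less: the median distance to the nearest TSS was 24160 bp for members and 20960 bp for unbound introns, and 36.4% of members and 38.3% of unbound introns lay in the first intron of the host gene.

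The GATA4 intervals had a median width of 598 bp, and at 1709 members (94.4%) the interval overlapped the H3K27ac region itself, while at the other 102 it lay beside it. The members carried 1631 distinct intervals, and 357 members shared an interval with another member, so neighbouring members are not independent. Host transcripts of 1806 members matched a RefSeq gene. For 1311 members (72.6%) the host was also the gene with the nearest TSS. They lay in 1245 host genes, of which 346 held 2 or more members and 25 held 5 or more. Prkce, which encodes protein kinase C epsilon, held 10, and Flt1, a VEGF receptor gene of endothelial cells, held 8, as did Exoc6b, Hecw2 and Rgl1. These genes also held unbound distal intronic regions: 49 in Prkce, 7 in Flt1, 12 in Exoc6b, 13 in Hecw2 and 22 in Rgl1.

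The distance to the TSS was measured from the centre of a region, so a wide region can reach over the TSS. That was so for 218 members (12.0%), against 4.67% of unbound introns. These 218 had a median width of 6607 bp and a median level of 1450 normalized reads, against 2514 bp and 174 normalized reads in the other 1593. At the limits of the rule, the 21 members just inside the distance limit had a median average knockout change of -0.04 on the log2 scale, against -0.03 in the 27 regions just outside it. The 77 members just inside the width limit had -0.01, against 0.00 in the 62 just outside.

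Among the members that reach over a TSS are 3 that the results below turn on: the region with the smallest adjusted p for the knockout, at Mrpl23, one of the regions at the GATA cofactor gene Zfpm1, and one at Kdr, a VEGF receptor gene. Their promoters are therefore part of the acetylated regions, and the 250 bases before each start are shown here 5′ to 3′ on the gene's strand, from RefSeq on GRCm38.p6. The region coordinates elsewhere are mm9 and cannot be set beside these.
Mrpl23 (chr7:142532782-142533031, + strand): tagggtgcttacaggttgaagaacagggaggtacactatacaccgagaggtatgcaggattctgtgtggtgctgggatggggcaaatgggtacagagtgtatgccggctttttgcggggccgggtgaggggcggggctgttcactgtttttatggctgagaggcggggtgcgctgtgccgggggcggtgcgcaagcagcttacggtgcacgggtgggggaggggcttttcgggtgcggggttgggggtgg
Zfpm1 (chr8:122281891-122282140, + strand): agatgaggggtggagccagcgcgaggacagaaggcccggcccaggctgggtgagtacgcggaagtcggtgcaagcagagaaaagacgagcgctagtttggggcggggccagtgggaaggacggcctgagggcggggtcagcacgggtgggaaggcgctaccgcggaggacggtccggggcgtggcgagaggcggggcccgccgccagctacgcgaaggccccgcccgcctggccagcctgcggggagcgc
Kdr (chr5:75978456-75978705, - strand): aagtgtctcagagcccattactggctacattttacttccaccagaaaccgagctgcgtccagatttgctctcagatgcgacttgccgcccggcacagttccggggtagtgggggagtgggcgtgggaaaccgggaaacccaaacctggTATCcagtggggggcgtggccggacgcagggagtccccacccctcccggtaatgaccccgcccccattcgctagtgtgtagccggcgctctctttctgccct
Capitals mark the core letters GATA or, on the other strand, TATC. Of all 32851 RefSeq windows of this length, 53.6% hold the core at least once. The core stands once in the Kdr window and not in those of Mrpl23 and Zfpm1. The 6-letter form AGATAA and its variants with T as first letter, G as last letter or both, which contain the core, were searched on both strands. They stand in 26.5% of all windows and in none of these 3. The GC share of the 3 windows was 62.0%, 73.2% and 61.6% in the order shown, against a median of 52.4% over all windows. The bases under the GATA4 intervals themselves were not read here.

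H3K27ac at the members ran slightly below that of all regions in the knockout comparison, and few members were called. Where the zero lies depends on the scaling: in the deposited scaling the members centred near 0 and all regions above it, and under other scalings, given below, all regions centred near 0 and the members below it. Averaged over both feeding states, 27 members rose and 50 fell (limma on log2(value + 1), adjusted p under 0.05 over all regions). That is 1.49% and 2.76% of members, beside a background of 2.99% higher and 0.89% lower among all regions, or 3.88% in either direction. The median change was -0.01 on the log2 scale in the members, -0.02 in the 1792 GATA4-bound distal intergenic regions, 0.15 in the unbound introns and 0.08 in all regions. The bound intergenic regions also had more calls down than up, 70 against 35, and the unbound introns had more calls up than down, 860 against 137. Members called lower ranged from -2.09 to -0.23 with a median of -0.52, and 6 of the 50 fell by more than a factor of 2. Members called higher ranged from 0.21 to 0.83 with a median of 0.46, and 0 of 27 passed a factor of 2.

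**Figure D1:**
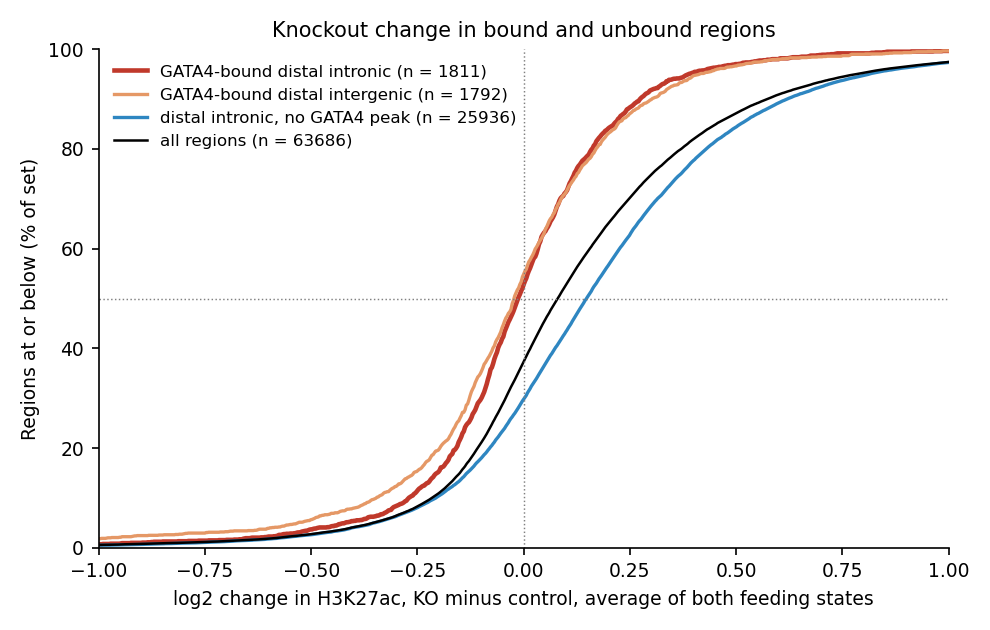
Cumulative share of regions (percent of each set, y axis) at or below a given log2 change in H3K27ac, KO minus control, averaged over both feeding states (x axis), for 1811 GATA4-bound distal intronic members, 1792 bound distal intergenic regions, 25936 unbound distal intronic regions and all 63686 regions. The curves of both bound sets cross 50% near 0, at -0.01 and -0.02, and the unbound introns cross it at 0.15; the axis shows changes from -1 to 1.

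The split between rises and falls depends on how libraries are scaled, because the median of all regions was 0.08 in the fit above, 0.02 with median-ratio rescaling and -0.01 with quantile normalization. The members called higher and lower were 15 and 78 with the first and 15 and 53 with the second. The member median was -0.01, -0.07 and -0.08 in the same order, so it lay below that of all regions under all 3 scalings, by -0.09, -0.09 and -0.07. Single libraries also moved the count of members called higher, 27 with all libraries: it was 5 without KO fasted replicate 1, 14 without KO fasted replicate 2, 12, 15 and 12 without KO refed replicates 1, 2 and 3, and 15 without control fasted replicate 1. The count called lower, 50, was 31 without KO fasted replicate 1 and 33 without control refed replicate 3.

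Members and unbound introns also differ in level, so both were split by level. In the highest 25% of all regions by level, 15 of 669 members rose and 28 fell, while 183 of 3830 unbound introns rose and 68 fell. In the next 25% down, 9 of 600 members rose and 18 fell, while 395 of 6445 unbound introns rose and 35 fell. The medians in the highest 25% were -0.04 in members, -0.02 in bound intergenic regions, -0.01 in all regions and 0.04 in unbound introns. The gap between members and all regions was thus smaller there than over all levels. Of all 15922 regions in the highest 25%, 473 rose and 330 fell. The 218 members that reach over a TSS gave 6 of the falls and 0 rises by limma. At an unadjusted p under 0.05, 5 of these 218 were higher and 46 lower, and edgeR and DESeq2 called 0 higher and 19 and 43 lower. The remaining 1593 members gave 44 falls and 27 rises, with a median of 0.00. Unbound introns over a TSS also had more falls than rises by limma, 44 and 22 of 1211, with a median of -0.03.

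Members with a narrow GATA4 interval held more of the falls. With the members split into 3 groups of like size, 27 of 604 with intervals of 239 to 516 bp fell and 4 rose. The middle group had 13 falls and 13 rises of 603, and the group with intervals of 699 to 2564 bp had 10 and 10 of 604. The median change lay between -0.02 and -0.01 in all 3 groups, and the difference between groups was not tested. Split in the same way by distance to the TSS, 21 members fell and 6 rose in the nearest group, against 10 and 10 in the farthest. All 50 falls were at members that the GATA4 interval overlaps, which holds for 94.4% of all members. The 102 members with the interval beside the region had 1 rise and 0 falls by limma, with a median level of 35.4 normalized reads against 245 in the rest.

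The fall with the smallest adjusted p was in intron 2 of Mrpl23, which encodes a protein of the large mitochondrial ribosomal subunit. The region, chr7:149718383-149724027 (mm9), reaches over the Mrpl23 start, and in the RefSeq order of genes its neighbours are Tnnt3 on one side and Nctc1, then H19, an imprinted noncoding RNA gene, on the other. It held 597, 741 and 633 normalized reads in KO fasted, against 1443, 1177 and 1108 in control fasted livers. It held 683, 614 and 897 in KO refed, against 1418, 1677 and 1463 in control refed livers. Every KO library lay below every control library in both states. The average change was -0.99 ± 0.10 (log2, SE) with a limma adjusted p of 0.000399, and it was called in fasted (-0.92, adjusted p = 0.0116) and refed livers (-1.07, adjusted p = 0.00373) alike. The fasted call alone was lost in 1 alternative, without KO fasted replicate 1 (adjusted p = 0.0504).

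**Figure D2:**
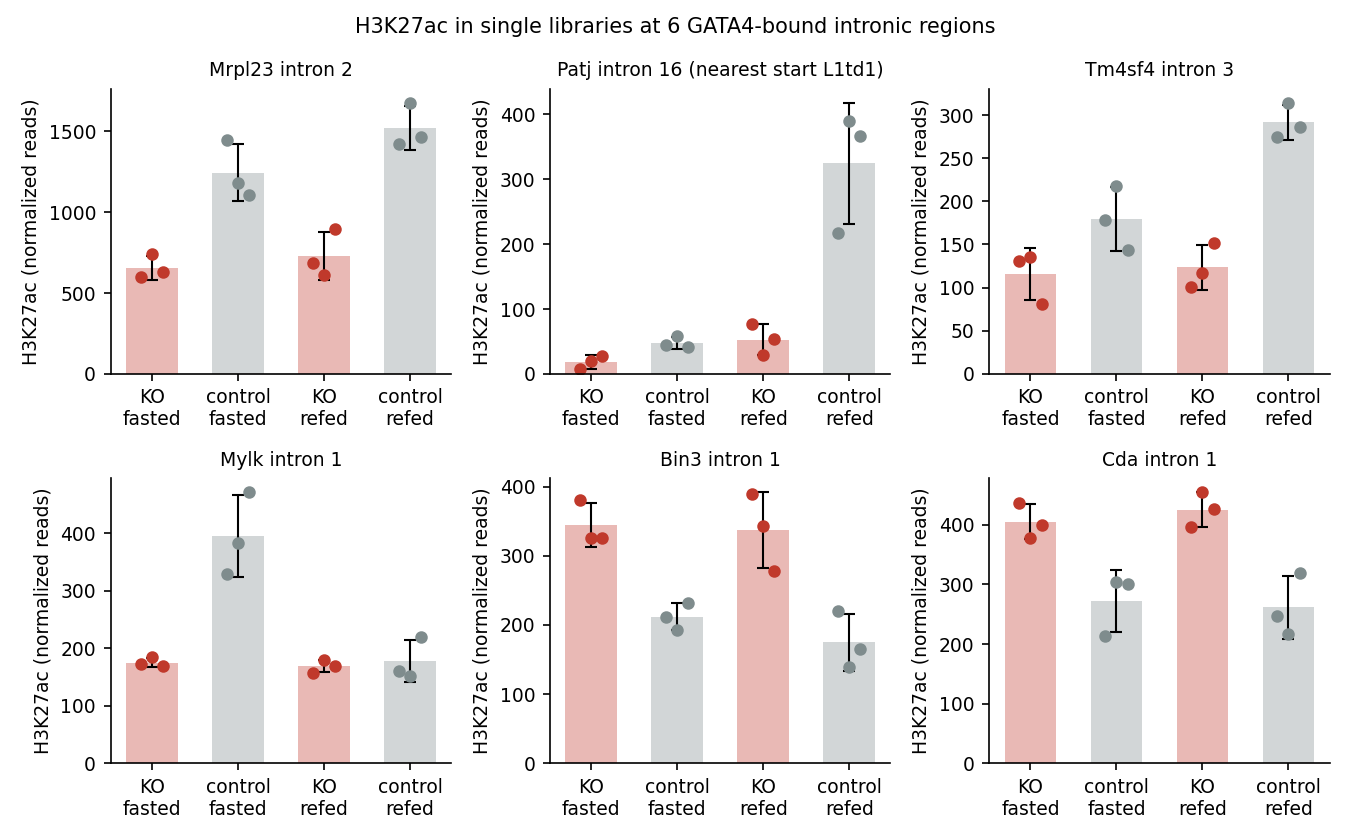
H3K27ac in normalized reads (y axis) in each of the 12 libraries at 6 members, with KO and control groups side by side for fasted and refed livers; points are libraries, bars are group means and whiskers are SD (n = 3). KO libraries lie below control libraries at Mrpl23, Patj and Tm4sf4 and above them at Bin3 and Cda in both feeding states, while at Mylk the 3 control fasted libraries, 329 to 472, stand above all others, 152 to 219.

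The cofactor gene Zfpm1 (FOG1) held 3 members, and 2 of them fell. Zfpm1 and Mylk were the only 2 host genes with 2 or more members called lower, and 0 had 2 or more called higher. In intron 1, at chr8:124817034-124825053 (mm9), the values were 901, 970 and 905 normalized reads in KO fasted, against 1296, 1508 and 1409 in control fasted livers. In the refed livers they were 886, 801 and 1346 in KO, against 1174, 1431 and 1441 in control. The groups did not overlap in fasted livers and did in refed ones, through KO refed replicate 3. The average change was -0.52 ± 0.11 (log2, SE; limma adjusted p = 0.0172). The member that lies farther into the gene, at chr8:124851349-124857309 and with the Trhr2 start nearest, changed by -0.50 (adjusted p = 0.0204). The member over the Zfpm1 start, at chr8:124803860-124810939, had -0.27 and did not pass the test (adjusted p = 0.082). Gata2, a GATA factor of blood and endothelial cells, held 1 member at chr6:88151747-88154416, with 184, 167 and 147 normalized reads in KO fasted, against 175, 229 and 194 in control fasted livers. Its average change, -0.14, did not pass (adjusted p = 0.52). Of the 8 distal intronic regions at the 8 GATA and FOG genes, 3 carried a GATA4 interval, 1 of which was called lower and 0 higher, counting genes by the nearest TSS.

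Mylk, which encodes the kinase of myosin light chains in contractile cells, held 3 members, and 2 of them fell on average. The one at chr16:34811891-34816084 had 172, 184 and 169 normalized reads in KO fasted, against 329, 383 and 472 in control fasted livers. In refed livers it had 158, 180 and 169 in KO, against 160, 152 and 219 in control. The knockout change was -1.16 ± 0.16 in fasted (adjusted p = 0.00849) and -0.05 ± 0.16 in refed livers (adjusted p = 0.912), and the test of the difference between them did not pass (1.10 ± 0.23, adjusted p = 0.106). A second member, at chr16:34823495-34828567, changed by -0.46 on average (adjusted p = 0.0118), and the third, at chr16:34858688-34865338, by 0.01 (adjusted p = 0.969).

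At other members the loss was seen in both states but passed the test only in refed livers or on average. In intron 16 of Patj, a scaffold of cell polarity, the region nearest the L1td1 start (chr4:98358262-98362249) held 7.04, 19.8 and 27.5 normalized reads in KO fasted, against 43.9, 57.9 and 41.3 in control fasted livers. It held 76.5, 28.5 and 53.8 in KO refed, against 217, 390 and 367 in control refed livers. The average change, -2.09 ± 0.30, was the largest among the members called (adjusted p = 0.00356). In intron 3 of Tm4sf4, a tetraspan membrane protein gene of liver and gut, the values were 131, 135 and 81.3 in KO fasted, against 178, 218 and 144 in control fasted livers, and 101, 117 and 152 in KO refed, against 275, 315 and 286 in control refed livers. The change at Tm4sf4 was -0.95 on average (adjusted p = 0.00572) and -1.25 in refed livers (adjusted p = 0.0129). At each of these members the KO libraries lay below the control libraries in both states.

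Another 5 members named for their average fall also had all KO libraries below the control libraries in both states. The rule for naming required this separation. By that rule 25 genes qualified for an average fall, and the 8 largest falls were named. Stxbp6 intron 2 (amisyn, a SNARE-binding protein) changed by -0.66, with 207, 269 and 279 normalized reads in KO refed, against 429, 434 and 393 in control refed livers. Myo5b intron 32 (a myosin of apical membrane traffic; nearest start Scarna17) changed by -0.61, and Ap1ar intron 8 (nearest start Tifa, an adaptor of NF-kB signalling) by -0.74. Dntt intron 8 changed by -1.31 and Evi5l intron 3 by -1.48, with wide spreads: Evi5l had 180, 47.3 and 154 in KO fasted, against 252, 222 and 619 in control fasted livers. The adjusted p was 0.00454 at Stxbp6, 0.00815 at Myo5b, 0.0138 at Ap1ar, 0.0301 at Dntt and 0.0281 at Evi5l. The Dntt and Evi5l calls were each lost in 5 of the fits that left out 1 library. For both these were the fits without KO refed replicates 1 and 2 and control refed replicate 3, with control fasted replicate 1 and control refed replicate 1 at Dntt and control fasted replicate 3 and control refed replicate 2 at Evi5l.

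In fasted livers alone, 15 members fell and 0 rose, beside a background of 0.245% lower and 0.312% higher among all regions, or 0.557% in either direction. At an unadjusted p under 0.05, 101 members were higher and 143 lower in fasted livers, and edgeR called 0 higher and 12 lower while DESeq2 called 9 higher and 43 lower. The falls ranged from -1.74 to -0.37 (log2). The largest was in intron 3 of Iqgap2, a scaffold of the cytoskeleton, nearest the F2rl2 start. It had 110, 255 and 239 normalized reads in KO fasted, against 585, 549 and 782 in control fasted livers, and 284, 164 and 268 in KO refed, against 359, 143 and 246 in control refed livers. The fasted groups did not overlap and the refed groups did (fasted change -1.74 ± 0.34, adjusted p = 0.0331). Lclat1 intron 1, in the gene of a lysophospholipid acyltransferase, averaged 78.2 in KO fasted and 206 in control fasted livers (-1.39 ± 0.27, adjusted p = 0.0331). The other members named for fasted livers lay in Cadps2 (-1.09), Ust (-1.01), Cngb3 (-0.93) and Dennd4c (-0.78), with adjusted p between 0.0141 and 0.0492. The Iqgap2, Lclat1, Cadps2, Cngb3 and Dennd4c calls were each lost without KO fasted replicate 1 and without control fasted replicate 1, among others, and the Ust call held in every fit that left out 1 library. The count of 15 was 4 without KO fasted replicate 1, 7 without KO fasted replicate 3, 6 without control fasted replicate 1, 3 without control fasted replicate 3 and 9 without control refed replicate 3, and it was 5 when only the fasted libraries were fitted.

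In refed livers 19 members fell and 8 rose, beside 0.297% lower and 1.73% higher among all regions, or 2.02% in either direction. With median-ratio rescaling 23 fell and 3 rose, and with quantile normalization 14 fell and 1 rose. Rasgef1b, a guanine nucleotide exchange factor gene, was the nearest start to the largest rise. This region held 312, 348 and 317 normalized reads in KO refed, against 120, 130 and 196 in control refed livers, and 635, 739 and 674 in KO fasted, against 655, 441 and 624 in control fasted livers. The refed change was 1.16 ± 0.18 (adjusted p = 0.00856). Acvr1 intron 1, in the gene of a BMP receptor, had 96.7, 113 and 114 in KO refed, against 60.2, 46.4 and 67.5 in control refed livers (0.90 ± 0.18, adjusted p = 0.0252). Gramd4 (0.98), Camsap2 (0.75) and Gypc (0.48) also rose, with adjusted p between 0.0294 and 0.0346. Of the falls not yet described, Cpsf3 intron 9 (nearest start Iah1) changed by -0.92 (adjusted p = 0.0456) and Pde4d intron 3, in the gene of a cAMP phosphodiesterase, by -0.79 (adjusted p = 0.0405). The Rasgef1b call held in all fits run, and the Acvr1, Gramd4, Camsap2, Gypc, Cpsf3 and Pde4d calls were each lost without KO refed replicate 1 and in some other fits. Without KO refed replicates 1, 2 and 3 the rises numbered 2, 3 and 2, and edgeR called 3. The falls numbered 10 and 9 without KO refed replicates 1 and 2, 12 without control refed replicate 1 and 11 without control refed replicate 3.

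Rises seen in both states were smaller. In intron 1 of Bin3, which encodes a BAR domain protein, the region at chr14:70505965-70508442 held 381, 326 and 326 normalized reads in KO fasted, against 211, 193 and 232 in control fasted livers. It held 389, 344 and 279 in KO refed, against 220, 139 and 165 in control refed livers. The average change was 0.83 ± 0.12 (adjusted p = 0.00356), and no KO library overlapped a control library. In intron 1 of Cda (cytidine deaminase) the values were 437, 379 and 400 in KO fasted, against 213, 303 and 301 in control fasted livers, and 396, 455 and 426 in KO refed, against 247, 217 and 320 in control refed livers. The change at Cda was 0.65 ± 0.11 (adjusted p = 0.00896). Macrod1 intron 3 (0.72), the region nearest Ak4, a mitochondrial adenylate kinase gene (0.69), Egln1 intron 1, in the gene of an oxygen-sensing prolyl hydroxylase (0.57), Frrs1 intron 1 (0.55) and the region in Cyp4f39 nearest the Cyp4f17 start (0.51) rose as well, with adjusted p between 0.0147 and 0.0255. The Ak4 and Frrs1 calls were lost with quantile normalization, and the calls at Macrod1, Ak4, Egln1 and Frrs1 without KO fasted replicate 1. The Frrs1 call was also lost without KO refed replicate 2 or 3, and the Egln1 call without KO fasted replicate 2, KO refed replicate 1 or 3 or control fasted replicate 1.

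Without regard to any test, KO libraries lay below control libraries at a larger share of members than of all regions, and above them at a smaller share. All 3 KO libraries lay below all 3 control libraries at 203 members (11.2%) in fasted and 195 (10.8%) in refed livers, beside 7.15% and 6.23% of all regions. They lay above at 131 (7.23%) and 180 members (9.94%), beside 10.9% and 17.6% of all regions. In both states at once, 49 members (2.71%) were below and 29 above, beside 1.31% and 3.04% of all regions. These shares depend on the scaling described above.

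The knockout change in fasted and in refed livers comes from separate mice, so it can be set side by side. Over the 1811 members the changes had Pearson's r of 0.29 and Spearman's rho of 0.28, against 0.22 and 0.25 over all regions, and the same sign was seen at 60.4% of members and 60.8% of all regions, so the share with the same sign is at the background. The points are regions of the same 12 libraries, some of which share a GATA4 interval, so r is a description. Of the 15 members lower in fasted livers, 13 had a negative change in refed livers and 3 were called there. Of the 19 lower in refed livers, 16 were negative in fasted ones, and of the 8 higher, 7 were positive. Over all regions, 116 of the 156 lower in fasted livers were negative in refed ones, and 26 were called there. Of the 189 lower in refed livers 146 were negative in fasted ones, and of the 1100 higher 844 were positive. No member was called in opposite directions.

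**Figure D3:**
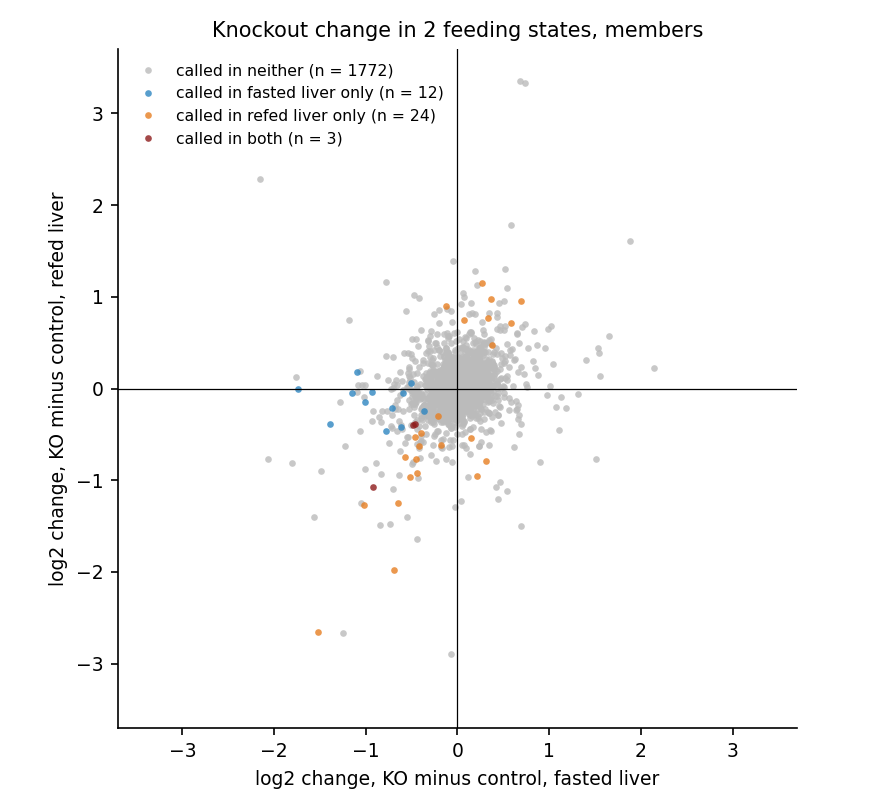
Log2 change in H3K27ac at the 1811 members, KO minus control, in fasted (x axis) and refed livers (y axis); each point is a member and colours give the calls at a limma adjusted p under 0.05. Most members lie within 1 unit of 0 on both axes, and the 3 called in both states are all lower in KO.

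The difference between the knockout changes in refed and fasted livers was called at 0 members by limma in either direction, beside 0.0157% higher and 0.00785% lower of all regions, or 0.0236% in either direction. At an unadjusted p under 0.05, 76 members were higher and 64 lower, edgeR called 0, and DESeq2 called 3 higher and 9 lower. The median difference was 0.02 in members and 0.06 in all regions (log2), and the sign of the member median turned with the scaling: it was -0.039 with median-ratio rescaling and -0.025 with quantile normalization.

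By gene list, the share of distal intronic regions with a GATA4 interval differed widely around the overall 6.53%. The regions were assigned to genes by nearest TSS. Endothelial marker genes had an interval at 32 of 87 distal intronic regions (36.8%), in 10 of the 19 genes. Bile acid genes had 8 of 53 (15.1%) and pericentral genes 10 of 84 (11.9%), and the genes of hepatocyte transcription factors had 6 of 81 (7.41%). Lists of gluconeogenesis (4 of 102), lipogenesis and glycolysis (2 of 52), fatty acid oxidation (2 of 55) and cholesterol synthesis (2 of 38) were at or under 5.26%, as were periportal genes (3 of 66), clock genes (2 of 51), acute phase genes (1 of 40) and genes of cholesterol export (1 of 32). Fetal and proliferation genes had 1 of 9. The lists of lipoprotein genes (54 regions), hepatocyte markers (35), stellate and fibroblast markers (23) and 3 smaller marker lists of 4 or 5 regions each had 0. No member had Gata4, Gata6, Abca1, Srebf1, Fasn, Pck1 or Cyp7a1 as its nearest gene.

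**Figure D4:**
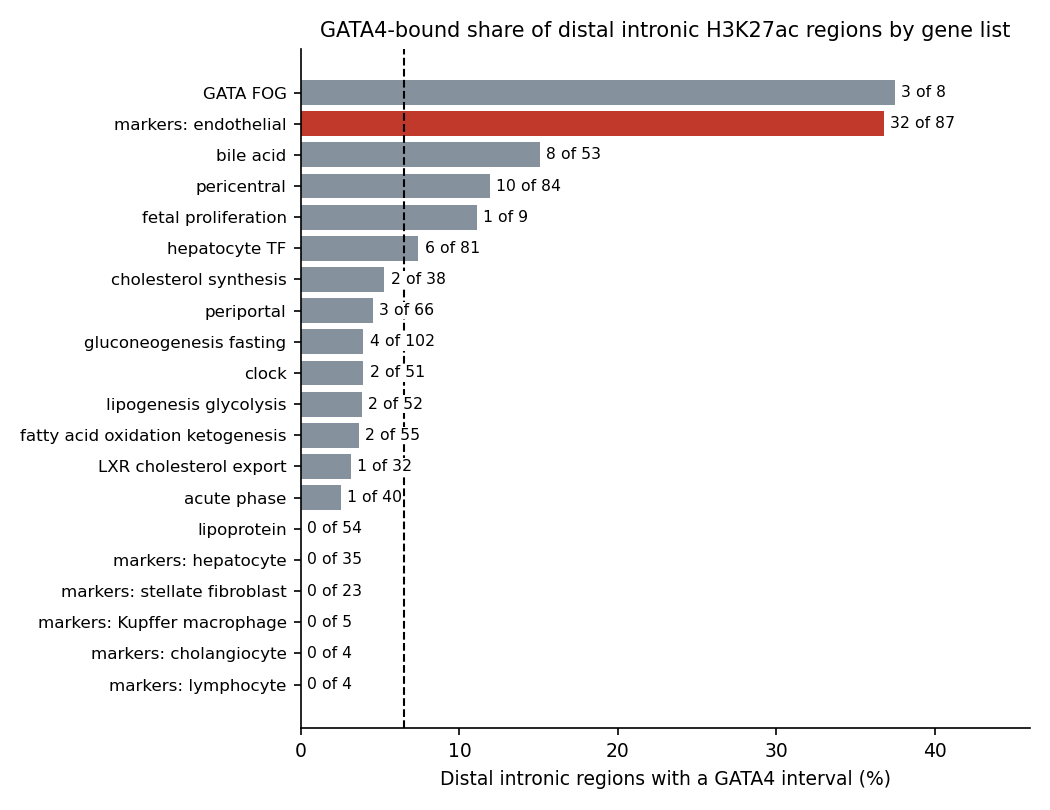
Share of distal intronic H3K27ac regions that carry a GATA4 interval (percent, x axis) for each gene list, with the number of members and of regions beside each bar; the dashed line is the 6.53% of all distal intronic regions. Endothelial markers (32 of 87) and the small list of GATA and FOG genes (3 of 8) have the highest shares.

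The 32 endothelial members belong to genes of sinusoidal identity and vascular signalling: Flt1 (6), Erg (5), Kdr (4), Tek (4), Stab2 (3), Wnt2 (3), Maf (3), Cdh5 (2), Stab1 (1) and Clec4g (1). Their knockout changes were small. The average change ranged from -0.31 to 0.28, with a median of -0.04, and 0 of 32 were called by limma or edgeR in either state or on average. Among all regions limma called 0.557% in fasted livers, 2.02% in refed livers and 3.88% on average. Beside these shares, 0 of 32 does not set the endothelial members apart. At an unadjusted p under 0.05, 1 was lower on average, and DESeq2 called 1 lower. The member with the smallest adjusted p lies in intron 5 of Clec4g, a lectin gene of sinusoidal endothelium, and reaches over the Clec4g start. It had 602, 701 and 652 normalized reads in KO fasted, against 777, 784 and 683 in control fasted livers, and 673, 818 and 701 in KO refed, against 768, 903 and 843 in control refed livers. The groups overlap, and the change of -0.20 did not pass (adjusted p = 0.137). In bulk liver, fewer cells of a type and less acetylation per cell cannot be told apart. The summed signal of 18 endothelial marker regions was 19490 to 19550 normalized reads in KO fasted, against 18330 to 19730 in control fasted livers, and 22510 to 23990 in KO refed, against 23760 to 25460 in control refed livers. This sum includes the wide Gata4 domain described above, because Gata4 is on the marker list. That domain alone held 3464 to 5756 normalized reads per library, and the sum without it was not computed.

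With refeeding, 4 of the 32 endothelial members rose and 2 fell in control livers, a share of rises near the 13.2% of all regions. The 4 that rose were the Kdr members, which carry 2 distinct GATA4 intervals between them. The member over the Kdr start had 579, 642 and 608 normalized reads in KO refed, against 545, 483 and 495 in KO fasted livers, and 696, 723 and 653 in control refed, against 563, 579 and 457 in control fasted livers. Refed and fasted libraries did not overlap in either genotype. The change was 0.26 in KO (adjusted p = 0.0836) and 0.38 ± 0.11 in control livers (adjusted p = 0.0135). The other 3 changed by 0.41, -0.03 and 0.28 in KO livers, where none passed the test (adjusted p = 0.141, 0.926 and 0.212), and by 0.57, 0.59 and 0.67 in control livers (adjusted p = 0.0347, 0.016 and 0.0042). The difference between genotypes was not called at any of the 4. The summed endothelial signal given above was also higher in refed than in fasted livers in both genotypes, and its part in the Kdr result was not tested. That sum includes the member over the Kdr start and the Gata4 domain. The Gata4 domain itself rose by 0.47 with refeeding in control livers (limma adjusted p = 6.02e-05). The member in Nisch nearest the Stab1 start was lower in control refed livers (-0.52, adjusted p = 0.000782), as was one in Wwox nearest the Maf start (-0.49, adjusted p = 0.0241).

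Among pericentral genes, which hepatocytes around the central vein express under Wnt signalling, 1 member fell and 1 rose on average. In intron 1 of Lgr5, a receptor that amplifies Wnt signals, the values were 396, 340 and 335 normalized reads in KO fasted, against 446, 497 and 424 in control fasted livers, and 465, 431 and 401 in KO refed, against 709, 485 and 541 in control refed livers. The groups did not overlap in either state (-0.38 ± 0.10, adjusted p = 0.0417). The Lgr5 region also reaches over the Lgr5 start. The Lgr5 call was lost in 10 of the 12 fits that left out 1 library, the exceptions being those without control fasted replicate 3 and control refed replicate 2. In intron 4 of Tcf7l2, a transcription factor of the Wnt pathway, the values were 190, 209 and 195 in KO fasted, against 144, 125 and 147 in control fasted livers, and 163, 188 and 162 in KO refed, against 135, 127 and 138 in control refed livers (0.43 ± 0.10, adjusted p = 0.0252). The Tcf7l2 call was lost with quantile normalization and without KO fasted replicate 1, KO fasted replicate 2 or KO refed replicate 2. A second Tcf7l2 member, also in intron 4, had 0.21 (adjusted p = 0.184), and Axin2, whose nearest member lies in Cep112, had 0.60 (adjusted p = 0.117).

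In the metabolic lists (bile acid, gluconeogenesis, fatty acid oxidation, lipogenesis, cholesterol synthesis and export) no member was called for the average knockout effect by limma. These lists held 8, 4, 2, 2, 2 and 1 members in that order. With 3.88% of all regions called, the absence of calls among so few members does not set them apart. For the hepatocyte factor list 1 of 6 was called, the Tcf7l2 member above, and Onecut2 had -0.42 (adjusted p = 0.336). Of 4 gluconeogenesis and fasting members, Foxo1, the insulin-regulated forkhead factor, had 0.26 (adjusted p = 0.122), Ppargc1a, a coactivator of the fasting response, had -0.45 (0.233) and Creb3l3 had -0.08 (0.49). Of 8 bile acid members, the 2 in Klb, which encodes a coreceptor of fibroblast growth factors, had -0.41 (adjusted p = 0.418) and -0.33 (0.454), and Abcc4, an organic anion exporter, had 0.85 (0.261). Dhcr7, the last enzyme of cholesterol synthesis, had -0.12 (adjusted p = 0.288) and Arntl, the clock factor BMAL1, had 0.29 (0.0695). Acacb and Fads2 of the lipogenic list had 0.24 and 0.17, with adjusted p of 0.153 and 0.483.

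Refeeding changed far more members than the knockout did. In KO livers 196 members rose and 183 fell, beside 13.3% and 11.4% of all regions (24.7% in either direction), and in control livers 233 rose and 241 fell, beside 13.2% and 16.8% (30% in either direction). Which direction was more frequent depends on the scaling. With median-ratio rescaling 177 rose and 195 fell in KO livers, and 268 rose and 212 fell in control livers. With quantile normalization 191 rose and 219 fell in KO livers, and 244 rose and 254 fell in control livers. The median change in control livers was 0.01 in members, -0.17 in unbound introns and -0.03 in all regions (log2). In KO livers 43 of the rises and 43 of the falls passed a factor of 2, and in control livers 46 and 63. Of the 218 members over a TSS 56 rose and 27 fell in control livers, against 177 and 214 of the other 1593. Unbound introns over a TSS also had more rises than falls, 292 and 176 of 1211, and among the highest 25% of all regions by level 24.3% rose.

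In intron 2 of Capzb, nearest the start of the lysosomal amino acid transporter gene Pqlc2, the values were 2655, 2915 and 2567 normalized reads in KO refed, against 778, 827 and 805 in KO fasted livers. In control livers they were 2956, 2886 and 2954 refed, against 479, 875 and 677 fasted. The rise was 1.75 ± 0.15 in KO and 2.16 ± 0.15 in control livers (adjusted p = 1.47e-06 and 1.26e-07). Morn5 intron 4 rose by 1.61 in KO livers, with 1901, 2007 and 2012 refed, against 672, 536 and 746 fasted (adjusted p = 2.91e-06). In intron 18 of Dixdc1, nearest the start of Dlat, a subunit gene of pyruvate dehydrogenase, control livers had 1690, 1196 and 1559 refed, against 265, 680 and 263 fasted (2.01 ± 0.31, adjusted p = 0.000174). The largest fitted rise was in intron 20 of Abcc6, a liver transporter gene, with 393, 425 and 736 in KO refed, against 0, 44.0 and 5.28 in KO fasted livers, and 1097, 878 and 637 in control refed, against 188, 108 and 0 in control fasted livers. With values at 0 in 2 fasted libraries, the fitted size of 6.25 in KO and 4.95 in control livers depends on the pseudocount. The call in control livers (adjusted p = 0.0212) was lost with DESeq2 and without control fasted replicate 3, control refed replicate 1 or control refed replicate 2, with a fold as low as 2.56 on the log2 scale among the alternatives.

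The falls included genes of acetate, glycogen and vitamin metabolism. In intron 2 of Acss2, the gene of cytosolic acetyl-CoA synthetase, the region nearest Acss2os had 210, 206 and 325 normalized reads in KO refed, against 1103, 1286 and 1299 in KO fasted livers, and 212, 187 and 113 in control refed, against 1351, 1218 and 1401 in control fasted livers. The change was -2.34 in KO (adjusted p = 2.19e-06) and -2.99 in control livers (adjusted p = 1.28e-07). Intron 3 of Gys2, liver glycogen synthase, changed by -1.84 in KO livers (adjusted p = 0.000409), and intron 3 of Slc23a2, a vitamin C transporter gene, by -1.72 (adjusted p = 1.2e-07). Camsap2 intron 1 changed by -1.73 in KO and -2.40 in control livers, Lpar3 intron 2 by -2.26 in control livers and AU019990 intron 4 by -2.44 in control livers, with adjusted p between 1.16e-07 and 4.18e-06. Cux2 intron 2, in a homeobox gene, had 51.7, 15.9 and 18.3 in KO refed, against 146, 306 and 124 in KO fasted livers, and 15.9, 0 and 0 in control refed, against 235, 31.3 and 158 in control fasted livers, so its fitted change of -5.38 in control livers also depends on the pseudocount.

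Of the fasting and feeding genes in the lists, Creb3l3 intron 3 (a factor of the fasting response) changed by -0.48 in KO (adjusted p = 0.00162) and -0.38 in control livers (0.00675), and Ppargc1a intron 2 by -0.95 in KO (0.0314) and -1.06 in control livers (0.0152). Dhcr7 intron 2 changed by 0.51 in KO (0.000989) and 0.37 in control livers (0.00688). The intronic members of 2 lipogenic genes went down with refeeding: Acacb (acetyl-CoA carboxylase 2) by -0.39 in KO (0.0424) and -0.52 in control livers (0.00788), and Fads2 (a fatty acid desaturase) by -0.56 in KO (0.0408) and -0.86 in control livers (0.00287). Itih4, an acute phase protein gene whose member reaches over its start, changed by 0.43 in control livers (0.000767). All values in parentheses are limma adjusted p.

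The refeeding changes of both genotypes come from separate mice. Over the 1811 members Pearson's r was 0.75 and Spearman's rho 0.68, against 0.77 and 0.71 over all regions, again over regions of the same libraries. The same sign was seen at 74.7% of members and 77.2% of all regions. Called higher in both were 141 members, 71.9% of those called in KO and 60.5% of those called in control livers. Called lower in both were 133, 72.7% and 55.2% of each. Over all regions these shares were 64.5% and 65.1% for rises and 75.5% and 51.2% for falls. No member was called in opposite directions. The knockout and refeeding comparisons share libraries, so their calls are only listed: of the 50 members lower in KO livers on average, 15 rose and 14 fell with refeeding in control livers.

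**Figure D5:**
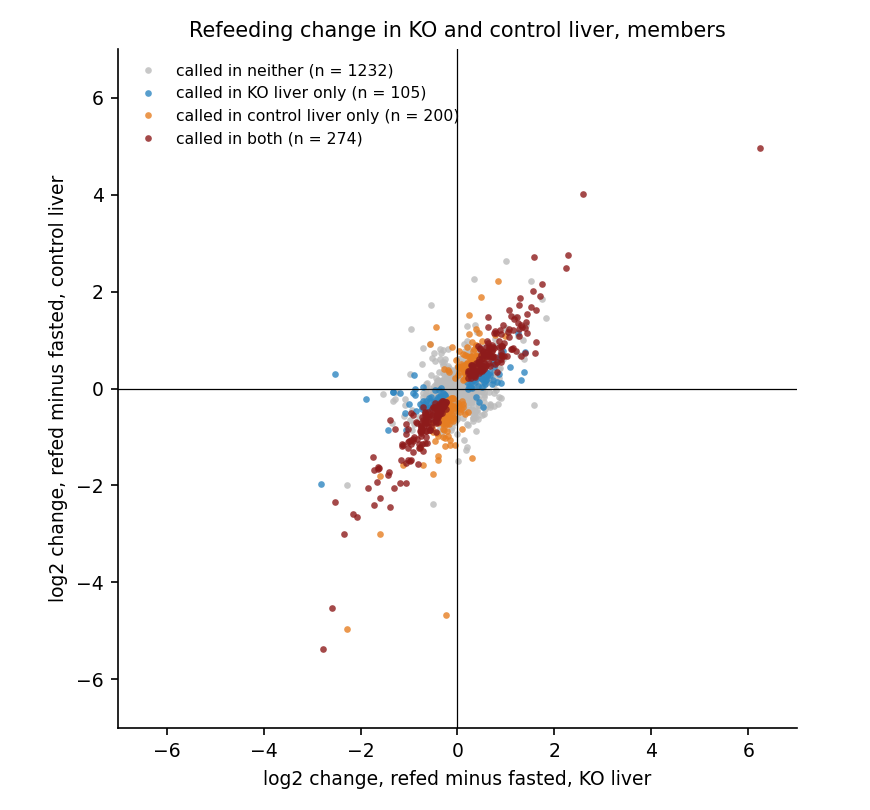
Log2 change in H3K27ac at the 1811 members, refed minus fasted, in KO (x axis) and control livers (y axis); each point is a member and colours give the calls at a limma adjusted p under 0.05. The 141 members called higher and 133 called lower in both genotypes run along the diagonal, and none is called in opposite directions.

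The authors' deposited table of the fasted comparison lists 54 members among 2021 regions (2.67% of the table), 12 with a positive and 42 with a negative fold. Their table of the refed comparison lists 80 members among 4200 regions (1.91%), 12 positive and 68 negative. Members are 1811 of all 63686 regions, so neither table holds a larger share of members than the full set does. In the authors' deposited tables over all regions the split runs the other way, with 1207 positive and 814 negative in fasted and 2974 and 1226 in refed livers. Of the members called here, 13 of 15 in fasted and 25 of 27 in refed livers stand in the authors' deposited tables. The authors' deposited table of the genotype effect holds 301 regions, of which 84 carried a GATA4 interval and 24 (7.97%) were members. Among all 63686 regions, 5292 carried an interval and 1811 were members.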

How the data were processed

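H3K27ac ChIP-seq was measured in 12 liver libraries with 12 inputs, of which the inputs were not used here. The submitters' processing notes name deepTools, HOMER, edgeR, DiffBind, bedtools, MACS2, SAMtools, Bowtie2, Trim Galore and FastQC with the build mm9, without roles or settings. The deposited table gives signal as scaled reads: a single factor turns each library's reads per region into the deposited values, and all libraries have the same sum. Values divided by that factor were whole within 0.01, so the reads could be recovered for the count tests. Per the file headers, HOMER annotated the regions; the GATA4 column is headed with a 500 bp window. The authors' deposited comparison tables give a log2 fold and a false discovery rate (an adjusted p-value); for the 24 members in the genotype table its sign was opposite to the knockout minus control difference here and its orientation is not stated, so only its counts are used.

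Log2(value + 1) of all 63686 regions was fitted in limma 3.58.1 (R 4.3.3) with 4 groups, all 12 libraries, a trend and Benjamini-Hochberg adjustment over all regions; called means an adjusted p under 0.05. No region was filtered, so all 1811 members were tested. On simulated data the fit was checked for known changes of a factor of 2 or more at regions at or above the median level. Smaller changes were not simulated, so that check does not bear on them. edgeR 4.0.16 and DESeq2 1.42.0 were run on the recovered reads as alternatives. Each library is 1 mouse, replicates are numbered in accession order, and p-values measure the spread between these mice. A number in the sample titles is the same within each group and differs between groups; if it marks a cage or a day, that cannot be told apart from the group. Depth was 23.1 to 25.3 M reads (M, 1e6 reads) in KO fasted, 22.2 to 27.8 in control fasted, 22.3 to 23.6 in KO refed and 27.4 to 30.4 in control refed libraries.

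Members are named by the nearest TSS in the authors' annotation, and host genes were matched through RefSeq (GRCm38.p6) names. Named members are the 8 largest falls and rises of each knockout contrast and the 5 largest of each refeeding contrast among those called, at or above the median level of all regions and without overlap between groups, 1 per gene and without predicted genes, together with up to 3 members of each of 20 gene lists by smallest adjusted p; the member in Zfpm1 nearest Trhr2, the further members of Mylk and Kdr and the Stab1 member were added after their values were seen. The members and lists were chosen with earlier results of these data known.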

Additional observations from a re-analysis of the deposited data

Results flagged for a closer look

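At Acsl1, which encodes a long-chain acyl-CoA synthetase, the member in intron 5 lay above the control libraries in fasted livers and below them in refed livers, without overlap. It had 396, 312 and 274 normalized reads in KO fasted, against 218, 246 and 232 in control fasted livers, and 404, 480 and 385 in KO refed, against 494, 551 and 599 in control refed livers. The difference between the knockout changes, refed minus fasted, was -0.85 ± 0.20 on the log2 scale and did not pass the test (limma adjusted p = 0.161). Over all members, 9 (0.497%) lay above in fasted and below in refed livers without overlap, beside 0.284% of all regions, and 6 (0.331%) the other way round, beside 0.454%. Refeeding at this member changed the signal by 0.38 in KO (adjusted p = 0.0615) and 1.23 in control livers (adjusted p = 1.29e-05).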

How the results depend on the processing

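Each group had 3 mice and libraries of 22.2 to 30.4 M reads, and what more of either would have called was not tested. For the average knockout effect, the members called lower numbered 139 with DESeq2 and 78 with median-ratio rescaling (50 as reported), those called higher 15 with median-ratio and 15 with quantile scaling (27), and the median -0.079, -0.074 and -0.079 with DESeq2, median-ratio and quantile (-0.01). In refed livers the members called higher numbered 3 with edgeR, 3 with median-ratio, 1 with quantile and 3 with the refed libraries alone (8), those called lower 77 with DESeq2 (19), and the median was -0.096, -0.078, -0.094 and -0.096 with DESeq2, edgeR, median-ratio and quantile (0.00). In fasted livers the members called higher numbered 9 with DESeq2, 1 without the lowest 25% of regions and 1 with a pseudocount of 5 (0), and those called lower 43 with DESeq2 and 5 with the fasted libraries alone (15). For the difference between states, DESeq2 called 3 higher and 9 lower, a pseudocount of 5 gave 1 lower, and the median was -0.039 with median-ratio rescaling. The cause was not tested. No call at a named member changed direction, but medians near 0 changed sign: that of the difference between states, 0.018 as reported, was also -0.032 with DESeq2, -0.020 with edgeR and -0.025 with quantile scaling, and that of refeeding in KO livers, 0.033, was -0.003 with edgeR and with quantile scaling. The balance of refeeding calls turned too: in KO livers (196 higher, 183 lower) it was 189 and 212 with DESeq2 and 177 and 202 with edgeR, and in control livers (233 and 241) 272 and 227 with DESeq2 and 243 and 223 with edgeR. Leaving out 1 library gave 5 to 33 higher and 31 to 49 lower (median -0.036 to 0.007) on average, 0 to 5 and 3 to 22 (-0.077 to 0.015) in fasted, 2 to 11 and 9 to 20 (-0.030 to 0.007) in refed livers, 0 to 3 and 0 to 1 (-0.026 to 0.070) for their difference, 132 to 209 and 128 to 190 (0.008 to 0.046) for refeeding in KO, and 174 to 247 and 194 to 240 (-0.049 to 0.059) in control livers. All 50 average falls were kept with edgeR and DESeq2, 48 with quantile scaling, and 31 to 42 when 1 library was left out. The 27 average rises held less well. Of these, 18 were kept with edgeR, 23 with DESeq2, 15 with median-ratio and 14 with quantile scaling, and 5 to 23 without 1 library. Over the named members, 1785 comparisons with an alternative left the outcome as it was, 169 lost a call and 7 gained one. The 1785 include members that were called neither in the main fit nor in the alternative. They also include alternatives that only narrowed the set of members, where the fit was unchanged and no call could be lost. No paired analysis was possible because the labels give no number that ties mice of different groups to each other.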
